A study of Mus musculus with 22 samples.

Results

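In mouse liver, 190 gene promoters carried more acetylation of histone H3 at lysine 27 (H3K27ac) than the median promoter, although their genes had no counted mRNA. They were chosen from 23167 promoters, 1 per gene symbol, by 2 measured values. The mean level over 3 chow libraries had to exceed the median of all promoters, 32.8 CPM (counts scaled to a library total of 1000000), and the gene had to have 0 counts in all 6 mRNA libraries. Of 194 promoters that met both conditions, 4 had the same counts as another and were dropped. The members were 3.64% of the 5213 promoters without counted mRNA and 1.64% of the 11583 promoters above the median. Just inside the level limit lay Mir3074-2 at 32.8 CPM and Npcd at 32.9 CPM, and just outside lay Isl2 and 4930547E08Rik, at 32.6 and 32.5 CPM.

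All livers came from wild-type C57BL/6J mice killed at 24 weeks of age after an overnight fast. The control mice ate standard chow throughout, and the others were switched to a high-fat diet at 8 weeks of age and kept on it for 16 weeks. Each diet had 3 mRNA libraries and 3 H3K27ac chromatin immunoprecipitation (ChIP) libraries. The labels number the replicates without saying that each is a separate animal, so p-values measure the spread between these libraries, which may be technical. Libraries held 1967613 to 4964403 counts in promoters and 19016275 to 45741794 counts in genes. Summed mRNA of 6 hepatocyte markers was 90789 to 98367 CPM on chow and 91668 to 100724 CPM on the high-fat diet. Summed mRNA of 8 pancreatic acinar markers, all of them with counts, was 218 to 1369 CPM on chow and 1.78 to 149 CPM on the high-fat diet. Skeletal muscle markers reached 77.5 CPM on chow and 0.133 CPM on the high-fat diet, and the part of either tissue in the results was not tested.

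Active promoters and enhancers are marked by H3K27ac, and most genes that carry it at their start are transcribed. A gene can lack mRNA counts beside an acetylated window in several known ways. A microRNA or small nucleolar RNA is cut from a longer host transcript, a gene can share its start region with a neighbour, and reads can be assigned to an overlapping gene or to a near-identical copy. A count of 0 is therefore no statement that the gene is silent. The upper limit that a count of 0 allows, 3 counts, is 0.0656 to 0.158 CPM in a single mRNA library and 0.0198 CPM over all 6; this covers counting error only.

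MicroRNA genes were the most frequent class, with 67 of the 190 members (35.3%). They were 2.65% of all promoters and 0.527% of the 11389 acetylated promoters whose genes had mRNA. Among the 5019 promoters at or below the median without mRNA they were 7.93%. The condition of 0 mRNA counts alone held for 75.6% of microRNA genes and 10.4% of genes with ordinary names. Another 50 members had ordinary gene names, 32 were RIKEN clones, 25 were predicted genes, 7 encoded small nucleolar RNAs and 5 had clone or accession symbols. The last 4 were the histone genes Hist2h2ab and Hist2h2bb and the minor spliceosome RNA genes Rnu11 and Rnu12. Receptor genes for smell, pheromones and taste gave 0 members, although 1420 of them had no counted mRNA. These shares carry no test, since the rule used both values.

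**Figure D1:**
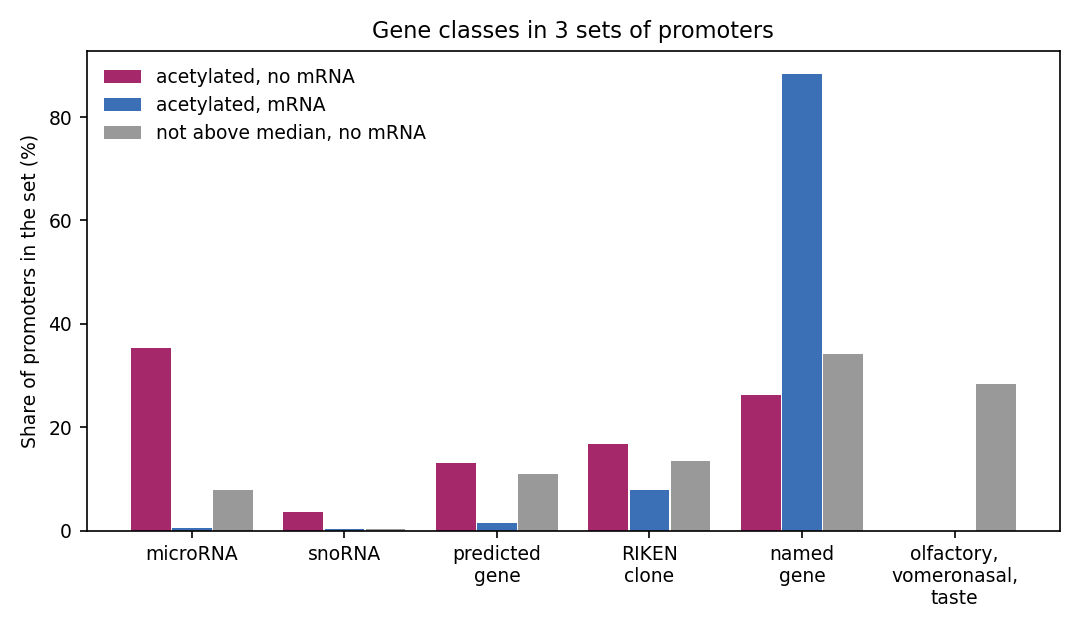
Share of promoters (percent) in 6 gene classes for the 190 members, for acetylated promoters of genes with mRNA (11389) and for promoters at or below the median of genes without mRNA (5019). MicroRNA genes make up 35.3% of the members, 0.527% of the acetylated promoters with mRNA and 7.93% of the lower promoters without mRNA.

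A mature microRNA pairs with target mRNAs through its seed, bases 2 to 8, and lowers their output. RefSeq gave mature sequences for 61 of the 67 microRNA members. The annotated spans of the 65 microRNA members that RefSeq matched were only 63 to 119 bases, and 44 of these lay inside a gene with mRNA. The window called the promoter of a microRNA gene may therefore lie at this short span. It need not be where the longer host transcript starts. Of 59 microRNA genes listed for their known part in liver or its non-parenchymal cells, 25 had no mRNA counts and 7 of these were members: Mir22, Mir193, Mir130a, Mir21, Mir24-1, Mir99b and Mir33. The guide sequences of 6 of them are shown from RefSeq (GRCm38), with the seed in capitals. The acetylation values below do not depend on these sequences. No seed is shared among these 6.
miR-22-3p: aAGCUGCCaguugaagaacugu
miR-130a-3p: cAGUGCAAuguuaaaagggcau
miR-21a-5p: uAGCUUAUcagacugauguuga
miR-24-3p: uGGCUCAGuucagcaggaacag
miR-99b-5p: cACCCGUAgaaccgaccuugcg
miR-33-5p: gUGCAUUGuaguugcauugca
Mir22 lies on chromosome 11, Mir130a on chromosome 2, Mir21 on chromosome 11, Mir24-1 on chromosome 13, Mir99b on chromosome 17 and Mir33 on chromosome 15.

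Members also lay in clusters whose mature products share a seed, shown next. In the cluster of Mir291a to Mir295 on chromosome 7, known from mouse embryonic stem cells, 3 members share a seed. In the Mir195 and Mir497 cluster on chromosome 11 both members share another. The Mir200c and Mir141 products from chromosome 6, known from epithelial cells, have unlike seeds.
miR-291a-3p: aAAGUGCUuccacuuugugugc
miR-294-3p: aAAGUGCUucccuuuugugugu
miR-295-3p: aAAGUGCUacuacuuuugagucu
miR-195a-5p: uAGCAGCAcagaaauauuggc
miR-497a-5p: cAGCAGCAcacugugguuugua
miR-200c-3p: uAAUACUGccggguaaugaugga
miR-141-3p: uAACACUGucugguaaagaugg
Levels within a cluster were near each other but not equal. The Mir291a, Mir291b and Mir292 promoters had 48.4, 47.9 and 47.3 CPM on chow, and those of Mir293, Mir294 and Mir295 had 39.8, 40.0 and 38.2 CPM. Mir291a lies 135 bases from the start of D7Ertd143e, whose promoter had 47.8 CPM on chow. D7Ertd143e had 4.27 ± 0.676 CPM (SD, n = 3) of mRNA on chow. The Mir195 and Mir497 promoters had 48.2 ± 4.39 and 53.3 ± 0.118 CPM (SD, n = 3), and the Mir200c and Mir141 promoters had 92.3 ± 12.5 and 82.4 ± 9.89 CPM. The width of a promoter window is not stated, and windows of neighbours in a cluster may count the same reads.

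Among the 7 listed microRNA genes that were members, Mir22 had the highest level. Its promoter had 145, 132 and 141 CPM in the 3 chow libraries and 109, 145 and 129 CPM in the 3 high-fat-diet libraries. The groups overlapped. Mir193 had 122, 119 and 128 CPM on chow and 112, 131 and 133 CPM on the high-fat diet. Mir130a, known from blood vessels and fat cell formation, had 101, 104 and 119 CPM on chow and 89.4, 123 and 106 CPM on the high-fat diet. Its start had no neighbouring or overlapping gene in the annotation used. Mir21, known for its rise in injured liver, had 54.9, 42.9 and 50.6 CPM on chow and 40.2, 46.2 and 46.8 CPM on the high-fat diet. Mir33, which lowers cholesterol export, lay nearer the limit, with 30.0, 37.9 and 38.5 CPM on chow and 29.5, 46.2 and 44.6 CPM on the high-fat diet. The chow and high-fat-diet libraries overlapped for each of these 5 genes. Mir24-1 and Mir99b had 42.4 ± 0.383 and 37.0 ± 7.49 CPM (SD, n = 3) on chow and 38.7 ± 4.95 and 31.0 ± 4.03 CPM on the high-fat diet. In edgeR's quasi-likelihood test none of the 7 listed microRNA genes passed the threshold, with log2 fold changes from -0.26 for Mir99b to 0.20 for Mir33.

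**Figure D2:**
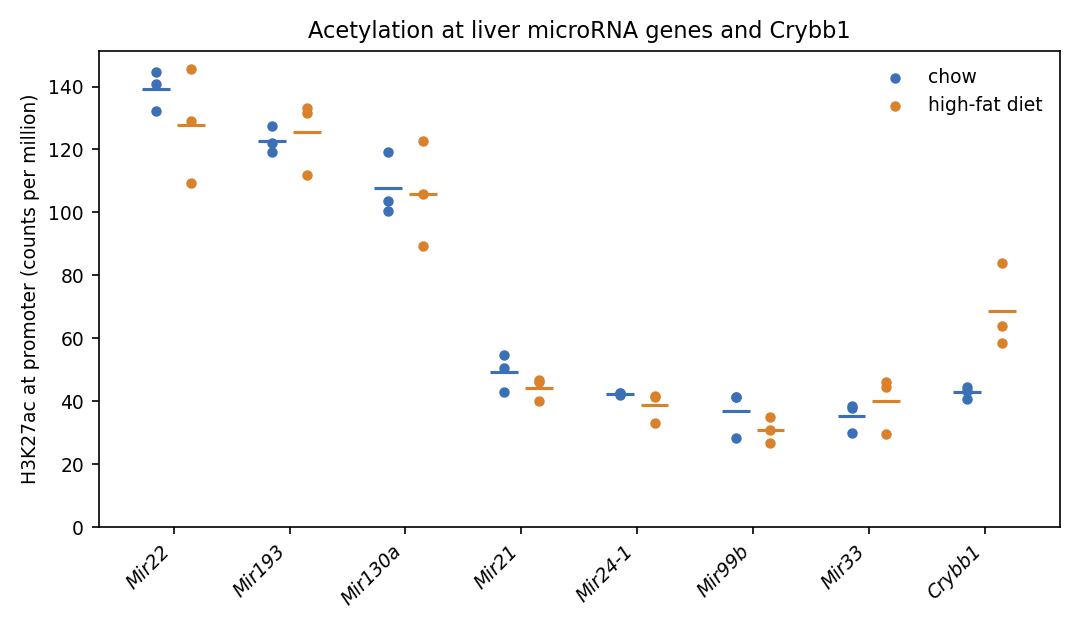
H3K27ac at the promoters of the 7 listed liver microRNA genes and of Crybb1, in CPM, for each of the 3 chow (blue) and 3 high-fat-diet (orange) libraries; lines are means. The libraries of both diets overlap at Mir22, Mir193, Mir130a, Mir21 and Mir33, and the 3 high-fat-diet values of Crybb1 lie above its 3 chow values.

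Over all members, the chow level ranged from 32.8 to 269 CPM with a median of 55.7, against a median of 70.3 CPM at acetylated promoters of genes with mRNA. The median coefficient of variation between chow libraries was 8.25% in members and 6.73% at those other promoters. The high-fat-diet H3K27ac libraries had no part in the choice, and there 174 of 190 members (91.6%) were above that diet's median of 35.1 CPM. The same held for 96.9% of acetylated promoters of genes with mRNA, and for 0.438% of promoters that were at or below the chow median and had no mRNA.

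The RIKEN clone 6430706D22Rik, which RefSeq did not match, had the highest level, with 262, 289 and 255 CPM on chow and 226, 274 and 268 CPM on the high-fat diet. Mir3968 had 186 ± 9.24 CPM (SD, n = 3) on chow; it lies inside 4933422H20Rik, whose own promoter had 33.3 CPM. Sco2, a copper chaperone for cytochrome c oxidase, followed with 162, 170 and 165 CPM on chow and 134, 154 and 154 CPM on the high-fat diet. Every high-fat-diet value of Sco2 was below every chow value, but the log2 fold change of -0.19 missed the threshold (adjusted p = 0.397, edgeR). Its annotated span overlaps Tymp, thymidine phosphorylase, and Ncaph2, a condensin subunit, which had 60.6 ± 5.27 and 47.2 ± 2.30 CPM of mRNA on chow.

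Further high members were Mir1903 at 146 ± 17.3 CPM, whose start is 168 bases from that of Nrp1, a co-receptor for semaphorins and vascular endothelial growth factor, and Atp6v0c-ps2, a pseudogene of a proton pump subunit, at 135 ± 4.93 CPM. The noncoding RNA gene 4930542H20Rik had 131, 124 and 127 CPM on chow and 110, 105 and 103 CPM on the high-fat diet. It lies inside Rab11fip4, whose own promoter had 15.6 CPM. BC090627 had 126, 126 and 124 CPM on chow and 93.0, 104 and 112 CPM on the high-fat diet. Its counts are those of Chkb, choline kinase beta, in every library. Both members were lower in every high-fat-diet library, and both missed the threshold (adjusted p = 0.138 and 0.154, edgeR).

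**Figure D3:**
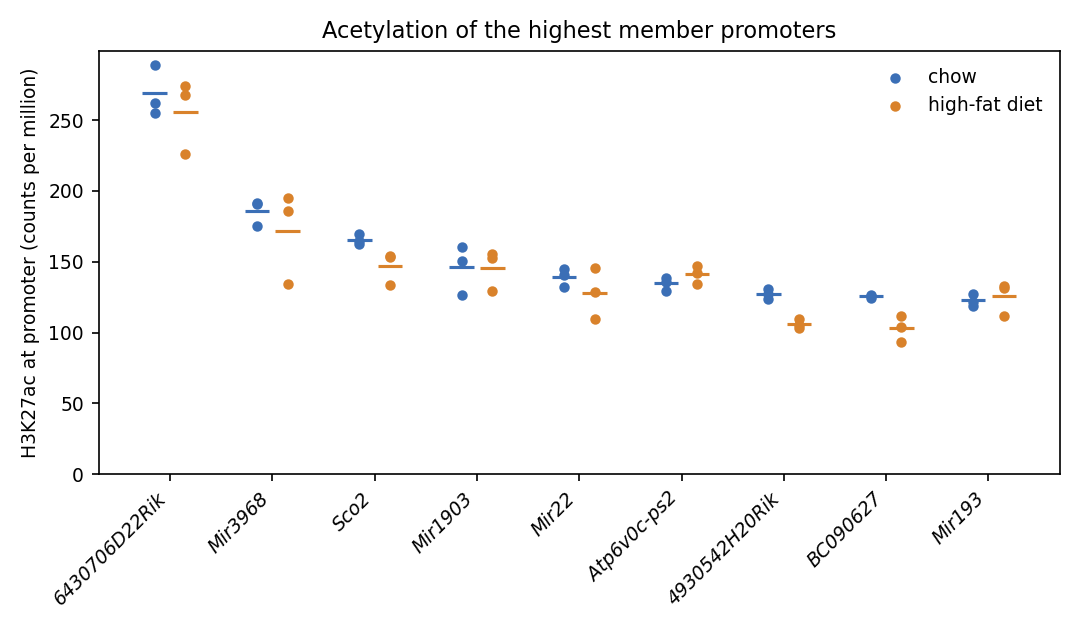
H3K27ac in CPM at members among the 10 with the highest chow level, for each of the 3 chow (blue) and 3 high-fat-diet (orange) libraries; lines are means. 6430706D22Rik stands highest at 269 CPM on chow, and Sco2, 4930542H20Rik and BC090627 are lower in every high-fat-diet library.

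The median chow level was 86.6 CPM in the 5 members with clone or accession symbols, 75.9 CPM in the 7 small nucleolar RNA genes, 61.9 CPM in predicted genes, 59.0 CPM in microRNA genes, 49.9 CPM in named genes and 41.0 CPM in RIKEN clones. The highest high-fat-diet means among predicted genes were 114 ± 9.42 CPM (SD, n = 3) at Gm16677, 105 ± 0.915 CPM at Gm6793 inside Terf2ip, and 81.7 ± 8.07 CPM at Gm5475. Among small nucleolar RNA genes, whose products guide chemical modification of ribosomal and other RNAs, the highest were Snord45c at 81.8 ± 2.18 CPM, Snord38a at 80.2 ± 1.53 CPM and Snord33 at 72.7 ± 0.923 CPM. Snord45c and Snord33 lie inside Rabggtb and Rpl13a. The RIKEN clone 4932412D23Rik had 67.3 ± 3.83 CPM, and LOC100504473 and BC096441 had 94.9 ± 5.30 and 93.6 ± 11.3 CPM.

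The members' position was described on GRCm38, while the counts were made on mm9. Neighbours, hosts and distances in bases are those of GRCm38 and may differ for the counted windows. Only the nearest start within 1 kb was examined, and with mRNA means at least 1 count over all libraries. Of 142 members with a known start, 33 (23.2%) had a gene with mRNA at that nearest start. The share was 20.1% for acetylated promoters of genes with mRNA and 1.43% for the lower promoters without mRNA. With at least 1 mRNA CPM on chow required of the neighbour, 22 members (15.5%) remained, against 16.7% and 0.300% of the same sets. Of 180 members that RefSeq matched, 63 (35.0%) lay inside the span of a gene with mRNA, against 2.37% and 7.73% of the same sets. All 7 small nucleolar RNA genes and 44 of 65 microRNA genes did so. The median member span was 1074.5 bases, against 20672 bases for acetylated promoters of genes with mRNA and 3557 bases for the lower promoters without mRNA; the part of span length in these shares was not tested. A further 47 of 142 members (33.1%) had no start within 1 kb and no overlapping gene, against 63.4% of acetylated promoters of genes with mRNA, 82.6% of the lower promoters without mRNA and 71.0% of all promoters.

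Members with a near start mostly had the acetylation of their neighbour. Where the neighbour had mRNA, the chow level of the member was within 10% of that of the neighbour in 31 of 33 pairs. Mir207 and Dnaja1, a heat-shock protein co-chaperone, start 5 bases apart and had 108 and 104 CPM. Fank1 and Dhx32, an RNA helicase family gene, start 88 bases apart on opposite strands and had 59.7 and 59.7 CPM, while Fank1 had no counted mRNA and Dhx32 had 35.3 CPM of it. Mir152 and Copz2, a coat protein subunit, start 517 bases apart and had 80.9 and 80.9 CPM. Windows this close may count the same reads, so these values are not independent measurements.

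Members inside a host gene, with no near start found, were less like it. A near start could be sought only for the 142 of 190 members with a known start. Over 40 such pairs whose host had mRNA counts, the ratio of member to host promoter ranged from 0.340 for Mir33 in Srebf2, a sterol-sensing transcription factor, to 21.1 for Gm13363 in Etl4. Gm7367 in Snrpn, a host without mRNA counts, had a ratio of 23.5. Mir22 and its host 2210403K04Rik had 139 and 154 CPM, Mir21 and Vmp1, an autophagy gene, had 49.4 and 78.0 CPM, and Mir33 and Srebf2 had 35.5 and 104 CPM. In 7 of the 40 pairs the member had more than 2 times the level of the host promoter. Among these 7 is Gm9846 in Osbpl10, at 6.39 times, whose counts are identical to those of Rps27, so this pair may not compare a member with its host.

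**Figure D4:**
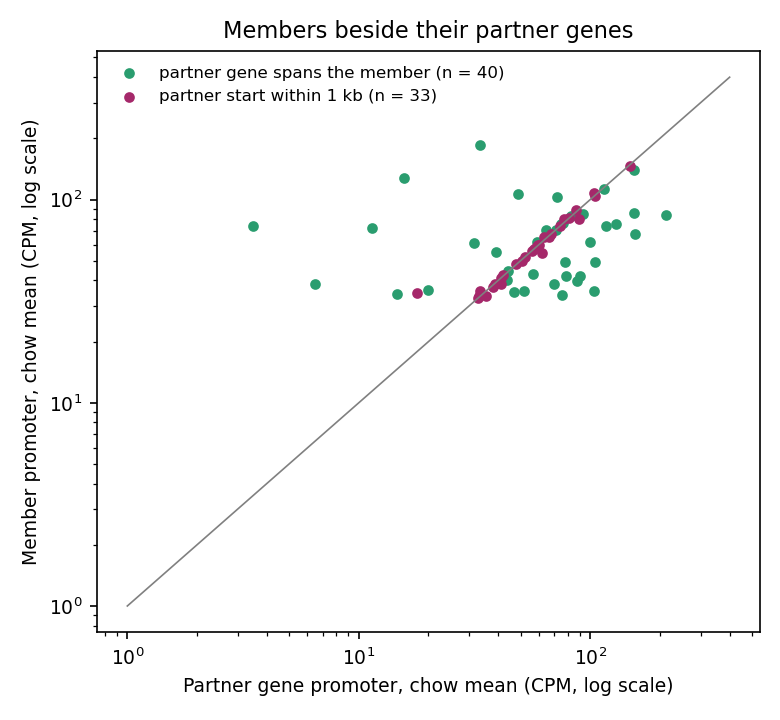
Chow H3K27ac (CPM, log scales) at member promoters against the promoter of the partner gene, for 33 pairs with starts within 1 kb (purple) and 40 members inside a partner gene (green), all partners with mRNA counts; the line marks equal levels. Pairs with near starts lie along the line apart from Lyzl4, at 1.94 times its neighbour, and members inside a partner range from 0.340 to 21.1 times its level.

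Members with no near or overlapping gene included hormone and enzyme genes known from other organs. Ren1, which encodes renin, the kidney enzyme that starts angiotensin formation, had 74.1, 54.7 and 77.4 CPM on chow and 52.9, 61.2 and 58.1 CPM on the high-fat diet. The symbol Ren2, also a renin gene name, was a member too, with 73.0 ± 13.7 CPM (SD, n = 3) on chow and 60.6 ± 6.63 CPM on the high-fat diet. Its log2 fold change was -0.31 beside -0.30 for Ren1. Whether Ren1 and Ren2 stand for separate loci in these mice was not tested. Both symbols may count the same reads, so their promoter values and their mRNA counts of 0 are uncertain. Oxt, which encodes the brain hormone oxytocin, had 59.3, 58.1 and 54.4 CPM on chow and 39.1, 54.4 and 47.7 CPM on the high-fat diet. The groups overlapped for Ren1 and met at 54.4 CPM for Oxt, and neither passed the threshold (adjusted p = 0.219 and 0.294, edgeR). Further examples were Mir203 at 113 ± 8.39 CPM, Mir210, a microRNA known to be induced by low oxygen, at 90.2 ± 7.89 CPM, and the minor spliceosome gene Rnu12 at 93.2 ± 3.09 CPM.

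Not every 0 can be read as a gene without mRNA. Ndufs5, a subunit of respiratory complex I, Amd1, an enzyme of polyamine synthesis, and Eif3j, a translation initiation factor, are used by nearly every cell, yet they were listed at 0 with promoter levels of 54.5, 75.2 and 67.4 CPM. Rpl26, a ribosomal protein gene dropped as a repeat of Gm15772, was also listed at 0. Counts identical in every library to those of another promoter were found for 15 of the 190 members (7.89%), and for 57 of 11389 acetylated promoters of genes with mRNA. For 11 of the 15 the other symbol had mRNA counts: U05342 repeated Zfp91, which had 104 ± 3.12 CPM of mRNA on chow, Npcd repeated Cbx6 and BC096441 repeated Tnfsf12. Gm10052 repeated Hnrnpa1 and Gm9846 repeated Rps27, although GRCm38 places these partners on other chromosomes, so it is not known which locus was counted, and such a member's neighbours may not be those of the counted window.

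Promoter sequence was available for 68 members, from 250 bases before to 50 after the start. Their median GC content was 55.3%, against 61.3% at acetylated promoters of genes with mRNA, 44.3% at the lower promoters without mRNA and 56.7% at all promoters. The median number of CG pairs was 7.5, 22, 2 and 14 in the same order. GGGCGG, the core of the Sp1 box, was found on either strand in 20 members (29.4%) and in 66.6%, 13.1% and 47.3% of the other sets. TATAAA was found in 5.88% of members and in 6.60%, 27.2% and 13.0% of the other sets in that order. For CCAAT the shares were 32.4% in members and 37.9%, 42.6% and 39.2% in the others. They were 10.3%, 29.9%, 4.10% and 19.2% for CCGGAA, and 7.35%, 10.6%, 4.41% and 8.20% for CACGTG. No microRNA gene is among the 68, and a match is only a match of letters.

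The promoters of Sco2, Ren1 and Crybb1 are printed because they belong to a named gene among the highest members, a hormone-system gene with no neighbour, and the only member called between diets. They are 300 bases each from RefSeq (GRCm38), read along the gene, at chr15:89373842-89374141 (minus strand), chr1:133350424-133350723 (plus strand) and chr5:112255570-112255869 (plus strand). Capitals mark matches on either strand to the 5 motifs above.
Sco2: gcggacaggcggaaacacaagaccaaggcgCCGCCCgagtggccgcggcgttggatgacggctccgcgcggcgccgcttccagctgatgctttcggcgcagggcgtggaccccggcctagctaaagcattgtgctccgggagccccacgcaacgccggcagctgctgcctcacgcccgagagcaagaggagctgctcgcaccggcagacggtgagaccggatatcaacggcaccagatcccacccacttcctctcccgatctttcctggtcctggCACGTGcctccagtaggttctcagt
Ren1: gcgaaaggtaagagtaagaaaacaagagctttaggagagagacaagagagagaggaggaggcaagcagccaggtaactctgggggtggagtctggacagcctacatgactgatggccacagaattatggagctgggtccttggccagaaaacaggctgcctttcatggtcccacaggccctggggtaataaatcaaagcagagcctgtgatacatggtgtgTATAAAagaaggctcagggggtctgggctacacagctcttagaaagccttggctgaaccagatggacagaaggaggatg
Crybb1: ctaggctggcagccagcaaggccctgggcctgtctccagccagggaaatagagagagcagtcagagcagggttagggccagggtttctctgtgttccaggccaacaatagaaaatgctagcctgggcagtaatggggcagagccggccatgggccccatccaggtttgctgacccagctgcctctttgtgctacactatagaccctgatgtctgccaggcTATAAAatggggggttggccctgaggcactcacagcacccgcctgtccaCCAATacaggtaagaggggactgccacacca
Sco2 holds 31 CG pairs, with 1 GGGCGG and 1 CACGTG, while Ren1 holds 1 CG pair and 1 TATAAA. Crybb1 holds 2 CG pairs, 1 TATAAA and 1 CCAAT.

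Between diets, 1 of the 190 members changed. All 190 passed the filter on low counts. The chow libraries entered both the choice of members and this fit, so the members' counts and directions are a description. Across the whole promoter fit, 0.235% of 20891 promoters were called, 0.187% in the direction of more acetylation on the high-fat diet and 0.0479% in that of less. Crybb1, which encodes a lens crystallin, had 43.4, 44.6 and 40.9 CPM on chow and 83.9, 58.6 and 64.0 CPM on the high-fat diet. Every high-fat-diet value was above every chow value. Its promoter rose by 0.63 on the log2 scale (SE 0.117, adjusted p = 0.0146, edgeR's quasi-likelihood test), but the call was lost when any 1 of the chow libraries or the third high-fat-diet library was left out (log2 fold change 0.59 to 0.67). Its span overlaps Cryba4, another crystallin gene, with 12 mRNA counts over all libraries and a promoter level of 37.5 CPM.

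The unadjusted p was under 0.05 for 29 members, 15.3%, against 14% of all promoters tested. The median log2 fold change of the members was -0.02, and that of all promoters tested was -0.003. Values near the threshold included 1700023C21Rik at -0.57 (SE 0.153, adjusted p = 0.0983, edgeR) and Mir3109 at 0.42 (SE 0.118, adjusted p = 0.109, edgeR). Mir3109 had 42.4, 33.7 and 44.7 CPM on chow and 57.9, 53.1 and 57.6 CPM on the high-fat diet, with no overlap.

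**Figure D5:**
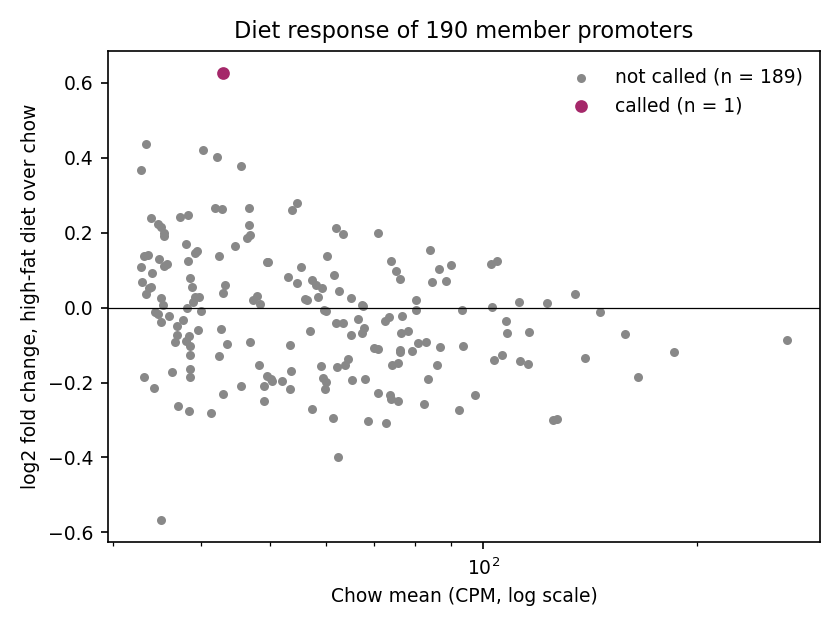
log2 fold change of H3K27ac (high-fat diet over chow, edgeR) against the chow level (CPM, log scale) for the 190 members; grey points missed the threshold and the purple point is Crybb1. Crybb1 stands at 0.63, and the median of all members is -0.02.

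For 87 members a gene with its start within 1 kb, or else a gene whose span holds the member, could be named as partner. Of 75 such genes that were no members themselves, 58 passed the mRNA filter and 20 were called, 10 in each direction. That is 34.5% of the tested partners. Of all 12909 genes tested, 35.6% were called, 18% upward and 17.6% downward, so the partners' share is near the background. With libraries scaled by total counts, 12 partners were called upward and 7 downward. In these bulk livers, fewer cells of a type and less RNA per cell cannot be told apart.

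The largest rise was that of Col27a1, a fibrillar collagen gene and host of Mir455, from 12.8 ± 5.41 to 43.2 ± 13.2 CPM (SD, n = 3, scaled by TMM), or by 1.73 on the log2 scale (SE 0.307, adjusted p = 0.00364, edgeR). Its libraries had 19.0, 9.76 and 9.52 CPM on chow and 56.5, 42.9 and 30.1 CPM on the high-fat diet, without overlap. Anxa2, a membrane-binding annexin gene and host of Mir3109, rose by 1.68 (SE 0.339, adjusted p = 0.00624, edgeR). It had 7.45, 8.15 and 8.60 CPM on chow and 17.0, 17.8 and 42.6 CPM on the high-fat diet, and the third high-fat-diet library was far above the others. The Anxa2 promoter itself rose by 0.62 (adjusted p = 0.0123, edgeR). Zmiz1, a transcriptional co-regulator gene that holds Mir3075, rose by 0.76, and Copz2, beside Mir152, rose by 0.57. Srebf2, the host of Mir33, rose by 0.71 (SE 0.237, adjusted p = 0.0480, edgeR), from 43.9, 34.8 and 32.9 CPM to 63.5, 80.0 and 38.9 CPM, with overlap between diets. The Srebf2 call was lost with another scaling and on leaving out any 1 of 5 libraries.

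Among partners that fell, Nop56, a small nucleolar ribonucleoprotein gene that holds Snord110, decreased by 0.88 on the log2 scale (SE 0.126, adjusted p = 0.00139, edgeR), from 29.0, 31.0 and 25.6 CPM to 18.2, 13.9 and 14.5 CPM. Rabggtb, a prenyl transferase subunit beside Snord45c, decreased by 0.74, and Cdk17, a cyclin-dependent kinase gene that holds Mir1931, decreased by 0.72. Chpf2, a chondroitin synthesis gene that holds Mir671, decreased by 0.71, and Glyctk, glycerate kinase, which holds Mir135a-1, decreased by 0.51. The Glyctk call was lost without the second chow library. The hosts of Mir22 and Mir21 also fell: 2210403K04Rik decreased by 0.51 (SE 0.165, adjusted p = 0.0424, edgeR) and Vmp1 by 0.49 (SE 0.111, adjusted p = 0.0107, edgeR). Nrp1, beside Mir1903, rose by 0.45 (SE 0.119, adjusted p = 0.0194, edgeR). None of the member promoters beside these partners passed the threshold.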

How the data were processed

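Liver mRNA and H3K27ac ChIP libraries, 3 for each diet, were used; H3K4me1, H3K4me3 and IgG libraries were not analysed here. Per the submitters' processing notes, the authors used TopHat 1.4.0, HTSeq, DESeq2 1.0.18 and bedtools for mRNA and Bowtie 0.12.7, MACS 1.4.0rc2, bedtools and DESeq2 for ChIP, on mm9. The deposited values used are whole-number counts per gene and per promoter; the promoter width and the strand setting are not given in the sources used here.

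CPM is the count divided by the library's total in the table. Diets were compared on the deposited counts with edgeR 4.0.16 (filterByExpr by diet, TMM scaling, quasi-likelihood test, two-sided) in R 4.3.3, with Benjamini-Hochberg adjustment over each whole table and a threshold of 0.05. Adjusted p-values in the text are from edgeR. mRNA levels set beside a fit were scaled by TMM; other mRNA levels were not. RefSeq names, neighbours and sequences come from GRCm38.p6 and matched 22896 of 23167 symbols. A partner is the gene with the nearest start within 1 kb, or else the smallest gene span that holds the member. The fit was tested on simulated data. The members, gene lists and classes were chosen with earlier results of these data known.

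Genes were named by rule: the 10 highest on chow, the 3 highest on the high-fat diet in each class of 5 or more members, members past the threshold, listed microRNAs, those next to the level limit, and up to 5 members in each direction whose partner mRNA was called. Ren1, Ren2, Oxt, Mir203, Mir210, Rnu12, Ndufs5, Amd1, Eif3j and the other examples of pairs, clusters and repeats were chosen after their values were seen. Peak lists on mm9 could not be joined to promoters given only by symbol, so the planned peak overlaps were not run. Some items that the rule names are not reported here.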

Additional observations from a re-analysis of the deposited data

How the results depend on the processing

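Members called between diets numbered 1 with DESeq2, with its size factors, with total counts and without a filter, and 0 to 3 when 1 library was left out; the count was 0 without any 1 of the chow libraries or without high-fat-diet replicate 3. Calls over all promoters ranged from 0 to 736 when 1 library was left out, and with 0 members called 18 to 28 had an unadjusted p under 0.05. With replicate number as a block, 4 members and 470 promoters were called. Whether equal numbers pair the libraries is not known. Deviations of same-numbered promoter libraries correlated at 0.09, -0.01 and 0.04, and those of mRNA libraries at 0.04, -0.04 and 0.14. The highest correlations with another number were -0.01, 0.02 and 0.12 for promoters and 0.09, 0.05 and -0.05 for mRNA. The block called 23 partners. Partner calls ranged from 13 to 22 when 1 library was left out, with 13 without chow replicate 2 or 3 or high-fat-diet replicate 2, and calls over all genes from 2899 to 5163. The 10 partners named for size kept their direction in all 110 recomputed values, of which 7 missed the threshold. A limit at the upper quartile left 59 members, and 54 of the 190 lay above that quartile on the high-fat diet. Allowing up to 5 mRNA counts gave 394 promoters, 189 of them among the 190. The cause of these changes was not tested, apart from the stricter or looser limit itself. The planned peak overlaps and their alternatives were not run. Promoter depth of 1967613 counts in the shallowest library limits small differences.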
